A study of Rattus norvegicus with 6 samples.

Results

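Rab GTPases are the largest branch of the Ras-like small GTPases, and their messenger RNA was measured here in rat left ventricle under 3 diets. Members were taken as every probe set that the platform annotation assigns to 1 symbol made of Rab, a number and at most 1 letter. This gave 97 of the 31042 probe sets tested, for 56 of the 14217 genes with a probe set of their own. Each gene was represented by the probe set with the highest mean over the 6 arrays, and the 41 remaining probe sets, from 27 genes with over 1 probe set, served as a check. The representatives were thus chosen by their measured mean level, and Rab1b was singled out with its low values under 1 diet already known, so its differences between diets are a description without a test.

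A Rab protein is attached to a membrane by its prenylated tail and cycles between a GTP-bound, active form and a GDP-bound, inactive form. Exchange factors load GTP, GTPase-activating proteins end the signal, and GDP dissociation inhibitors carry the inactive protein through the cytosol, while effectors bound by the active form tether, move or fuse vesicles. In heart muscle, Rab proteins are known for carrying receptors, ion channels and the insulin-responsive glucose transporter GLUT4 between endosomes and the cell surface, and for moving secretory and membrane proteins from the endoplasmic reticulum to the Golgi.

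All groups were male Wistar rats that began a diet at 6 weeks of age, ate it for 12 weeks, and were 18 weeks old when left ventricular tissue was collected after an overnight fast. The groups were Control diet, Western diet, and Western diet plus docosahexaenoic acid (Western plus DHA), a polyunsaturated fatty acid of fish oil, and the study aimed at an enlarged left ventricle with few accompanying disorders. Each diet had 10 rats and 2 arrays, and each array held RNA pooled from 5 rats. Pooling hides the spread between animals. Each standard error (± below) comes from the limma fit, where the spread between pools, shared over the 3 diets, is drawn toward that of all probe sets, so it can exceed the gap between a gene's own arrays. Per the submitters' notes the deposited values are log2 expression from RMA, which sets arrays to a shared distribution.

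All 9 cardiomyocyte markers exceeded the median over all probe sets (5.34), with a mean log2 level of 13.28 to 13.43 per array. Over all probe sets the paired arrays of a diet correlated at r = 0.993 to 0.996, and over the Rab members at 0.994 to 0.997 across genes. The RNA quality probes set different arrays apart. The 3′ minus 5′ difference of Gapdh was 0.68 on Control 1 and 0.30 to 0.47 on the others, and that of beta-actin 1.82 on Control 1, 1.87 on Western plus DHA 1 and 1.48 to 1.54 on the rest. That of hexokinase was 1.89 on Control 2, 2.04 on Western plus DHA 2 and 2.25 to 2.28 on the rest. Control 1 was the highest array for 19 Rab members (33.9%, against 23% of all genes), and Western plus DHA 2 the lowest for 20 (35.7%, against 25.5%). The log2 level summed over the 4 measured erythroid markers was 12.37 to 12.55 on Control, 12.71 to 12.74 on Western and 12.90 to 13.02 on Western plus DHA arrays, although 1 of the 4, Slc4a1, ran the other way, at -0.36 from Control under Western plus DHA. The sum over the 3 measured neutrophil markers was 6.10 and 6.43 on Control, 7.04 and 7.15 on Western, and 6.96 and 6.93 on Western plus DHA arrays, and all 3 had an unadjusted limma p under 0.05 for Western against Control. The same sum over the 4 measured epicardial and mesothelial markers was 7.61 to 7.71 on the other arrays, 7.74 on Western plus DHA 2 and 7.96 on Western plus DHA 1. Of the 4, Wt1 was lowest on Western plus DHA 2, at 6.59, and differed by -0.15 from Western under Western plus DHA, where 3 were above Western. Such a sum leans most on its brightest marker, which was Hbb for the erythroid list and Wt1 here. The part of these array and marker differences in the Rab values was not tested, beyond the values without single arrays given below.

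The level of Rab1b, which with its near-identical paralogue Rab1a directs vesicles from the endoplasmic reticulum to the Golgi, was lowest on both Western plus DHA arrays. Its representative probe set, 1382946_a_at, read 9.52 and 9.11 on Control, 8.73 and 9.32 on Western, and 8.39 and 7.93 on Western plus DHA arrays, in log2. Both Western plus DHA values lay below the 4 other values, while the Western and Control values overlapped. The difference from Control was -1.15 ± 0.241 (SE, 2 arrays a diet; 95% interval -1.71 to -0.60), a 2.23-fold lower level, and the difference from Western was -0.86 ± 0.241. Western minus Control was -0.29 ± 0.241, with a 95% interval of -0.85 to 0.26. These intervals do not allow for the choice of Rab1b with its values known. In RNA from whole tissue, fewer cells of a type that carries the transcript and less RNA per cell cannot be told apart.

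Rab1b is measured by 4 probe sets, of which 3 were designed on 1 shared source sequence and are not independent readings. Probe set 1382947_at read 8.33 and 8.26 on Control, 8.09 and 8.18 on Western, and 7.74 and 7.89 on Western plus DHA arrays. Its 3 diets did not overlap, and Western plus DHA minus Control was -0.48 ± 0.125. Probe set 1392855_x_at read 8.98 and 8.90 on Control, 8.78 and 9.21 on Western, and 8.45 and 8.30 on Western plus DHA arrays. Only the Western plus DHA values stood apart there, at -0.57 ± 0.161 from Control and -0.62 ± 0.161 from Western, and Western minus Control was 0.05 ± 0.161. Probe set 1398982_at read 8.79 and 8.17 on Control, 7.97 and 8.45 on Western, and 7.87 and 7.58 on Western plus DHA arrays. The difference from Control was -0.75 ± 0.236 there, and with Control 1 left out it was -0.44. Both Western plus DHA arrays were thus below every other array in all 4 probe sets, but the size of the difference ranged from -1.15 to -0.48.

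Another 3 probe sets carry the symbols of both Rab1b and Rab1a and are no members, since their signal cannot be assigned to 1 gene. Probe set 1385270_s_at read 8.0 and 7.84 on Control, 7.44 and 7.84 on Western, and 6.99 and 6.68 on Western plus DHA arrays, and 1393669_at read 8.32 and 8.0, 7.60 and 8.04, and 7.27 and 6.84. Western plus DHA minus Control was -1.09 ± 0.175 and -1.11 ± 0.206. Both are among the 66 probe sets of the authors' deposited table of differentially expressed probe sets, which spans the 3 comparisons, and no probe set of a Rab member is. In the authors' deposited table of all probe sets their p-values for Western plus DHA against Control are 0.000225 and 6e-04, and the adjusted p-values 0.495 and 0.503. The third, 1385206_at, was dimmer than that median, at 3.65 to 4.12, and gave 0.10 ± 0.143. Rab1a itself, on its representative 1398841_at, read 11.08 and 11.34 on Control, 11.35 and 11.23 on Western, and 11.40 and 11.40 on Western plus DHA arrays. Its Western plus DHA values were the highest of the 6 by a small margin, 0.20 ± 0.136 from Control with a 95% interval of -0.12 to 0.51 (limma adjusted p = 0.662). The difference in Rab1b was therefore not seen on the probe set assigned to Rab1a alone.

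**Figure D1:**
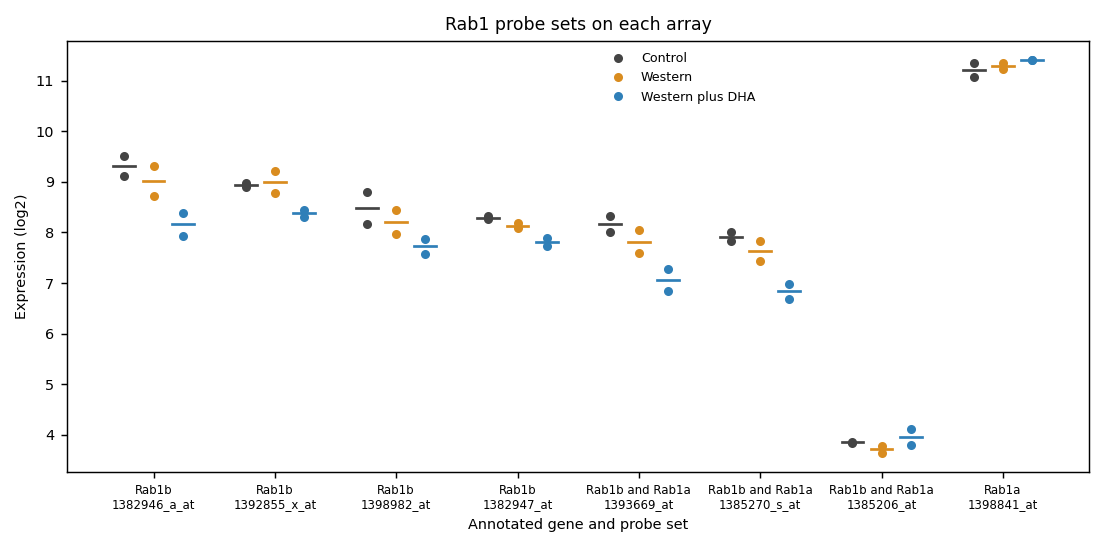
Log2 expression of the 4 Rab1b probe sets, the 3 annotated to both Rab1b and Rab1a, and the Rab1a probe set, with a point for each array and a bar at the mean of the 2 arrays of a diet. Western plus DHA points lie below the others in the 4 Rab1b probe sets (-1.15 to -0.48 from Control) and in 2 shared ones, and not in Rab1a.

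Across the Rab family the diets differed little. Over the 56 members the median log2 difference was -0.04 for Western minus Control, -0.02 for Western plus DHA minus Control and 0.01 for Western plus DHA minus Western, beside 0.01, 0.03 and 0.01 over all 14217 genes. No member passed an adjusted p of 0.05 in any of the 3 comparisons (limma, Benjamini-Hochberg over 31042 probe sets), where 0% of the 14217 genes passed in each. The median standard error of a member's difference was 0.135, and 0 members were over 0.5 from Control under Western (0.64% of all genes were) and 2, Rab1b and Rab11b, under Western plus DHA (3.57%, against 3.51% of all genes). The 2 comparisons with Control share its 2 arrays, and no likeness between them is drawn here.

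The level of a member ranged over the 6 arrays by a median of 0.34 in log2. Rab33b, a Golgi Rab that also acts in autophagy, had the narrowest range at 0.04, and Rab7a, which drives fusion of late endosomes with lysosomes, ranged over 0.08. Rab1b had the widest range at 1.59, followed by Rab11b at 1.06 and Rab3b at 0.91. Rab3b, a Rab of regulated exocytosis, read 9.87 and 9.08 on Control, 9.71 and 8.97 on Western, and 9.50 and 8.95 on Western plus DHA arrays. Its range lay within each diet and not between diets, and Western plus DHA minus Control was -0.25 ± 0.320.

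**Figure D2:**
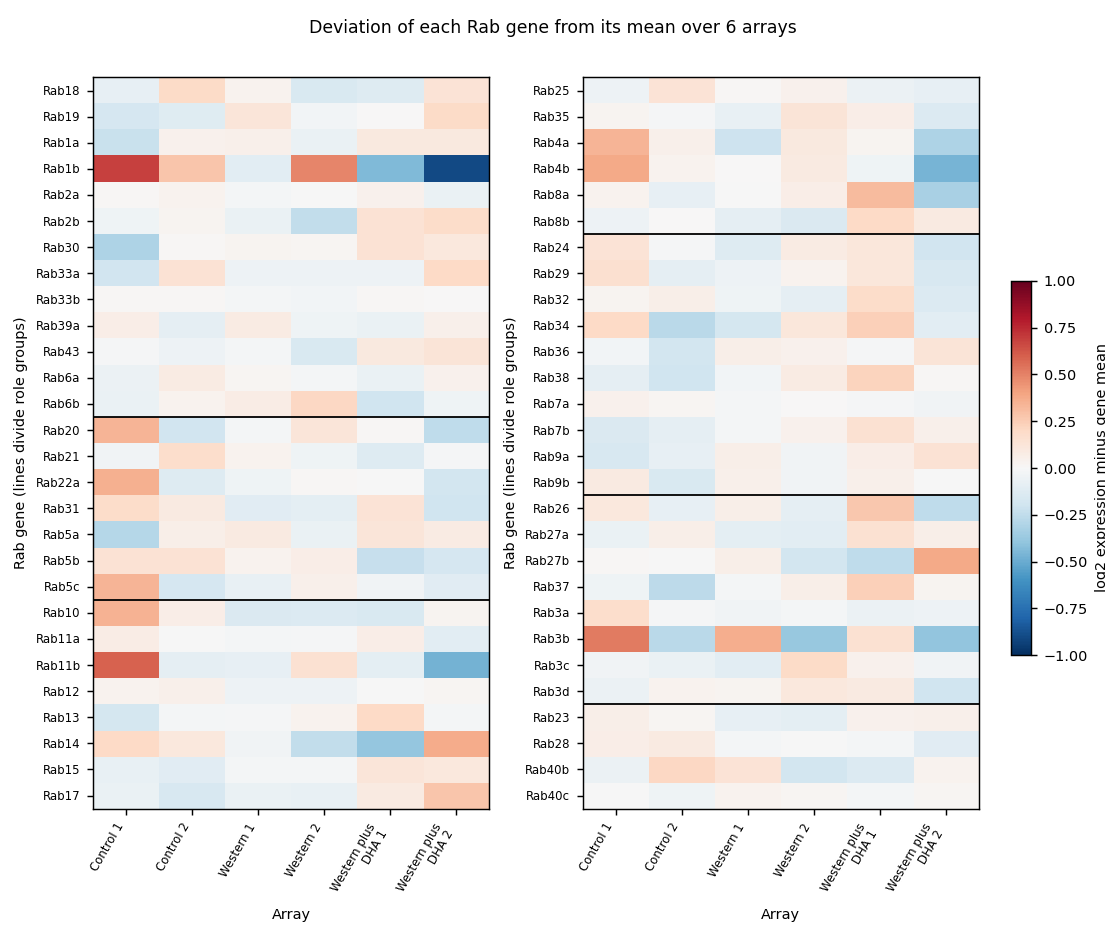
Log2 expression of each of the 56 Rab genes minus its mean over the 6 arrays (colour, from -1 to 1), with arrays as columns and lines between role groups. Rab1b, Rab11b and Rab3b have the widest ranges (1.59, 1.06 and 0.91), and Control 1 is the highest array for 19 genes.

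Under Western plus DHA against Control, 5 members had an unadjusted limma p under 0.05, 1 higher and 4 lower, which is 8.93% of members where 8.45% of all genes did. By direction the shares of all genes were 4.46% higher and 3.99% lower, against 1.79% and 7.14% of members. The 4 lower members were Rab1b, described above, and Rab5b, Rab4b and Rab11b, all of endosomal routes, and the higher member was Rab17. The members' count over both directions together is thus close to the background. The count was 10 without Control 2, 3 without Control 1 and 2 without either Western array, which enter only through the shared spread. The share of all genes moved with it, to 17.8%, 3.09% and 5.54%.

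Rab5b, a Rab of early endosomes, read 9.13 and 9.13 on Control, 9.02 and 9.05 on Western, and 8.75 and 8.81 on Western plus DHA arrays. The 3 diets did not overlap. Western plus DHA minus Control was -0.35 ± 0.118 (95% interval -0.62 to -0.08; limma adjusted p = 0.562), and between -0.38 and -0.32 with any 1 array left out. Of its 4 other probe sets, 1399153_at gave -0.51 ± 0.142 and 1393288_at -0.69 ± 0.264 for the same difference, with no overlap between these diets, and the latter was -0.33 without Control 1. The remaining pair, both below the median level, gave opposite signs, 0.39 ± 0.211 and -0.50 ± 0.304. Its paralogues Rab5a and Rab5c differed by 0.21 ± 0.150 and -0.16.

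Rab4b, which returns cargo quickly from early endosomes to the surface, read 5.97 and 5.63 on Control, 5.60 and 5.68 on Western, and 5.55 and 5.13 on Western plus DHA arrays. Both Western plus DHA values were below the others, by little on the first array. The difference from Control was -0.46 ± 0.178 (limma adjusted p = 0.562), and -0.25 without Western plus DHA 2. Rab4a, its paralogue, read 7.84 and 7.55, 7.29 and 7.60, and 7.53 and 7.19, a difference of -0.34 ± 0.178 from Control (limma adjusted p = 0.598).

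Rab11b, a Rab of slow recycling through the perinuclear recycling endosome, read 10.88 and 10.20 on Control, 10.21 and 10.44 on Western, and 10.19 and 9.82 on Western plus DHA arrays. Only Control 1 stood clear of the rest at the high end, and the first Western plus DHA value lay just under Control 2 and Western 1. Western plus DHA minus Control was -0.54 ± 0.228 (limma adjusted p = 0.563), and it was -0.20 without Control 1 and -0.87 without Control 2. The second Rab11b probe set, 1398825_at, read 9.32 and 8.62, 8.61 and 8.92, and 8.15 and 7.63. Both Western plus DHA values lay clearly below the other 4 on it, with a difference of -1.08 ± 0.256 from Control and -0.88 ± 0.256 from Western, and of -0.73 from Control without Control 1. Rab11a, the best known member of that subfamily, differed by -0.06 ± 0.125 (95% interval -0.34 to 0.23).

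Rab17, known from polarised epithelial cells, was below the median of all probe sets. It read 4.23 and 4.13 on Control, 4.23 and 4.22 on Western, and 4.38 and 4.57 on Western plus DHA arrays, 0.30 ± 0.128 above Control (limma adjusted p = 0.563). Its other probe sets, dimmer still, gave 0.22 (1383437_at) and 0.02 (1393319_a_at) for the same difference. Next in order of p among higher members came Rab37 at 0.28 ± 0.139 and Rab38, a Rab of lysosome-related organelles, at 0.26 ± 0.133, both also below the median level. Of the 14 members below it, the median difference was 0.07, and of the 42 at or above it, -0.05.

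The promoter sequences of Rab5b, Rab4b and Rab11b are shown because these members had the smallest p among the lower ones apart from Rab1b. They are the 250 bases before the annotated gene start in RefSeq (assembly GRCr8), written 5′ to 3′ on the gene's own strand, here the minus strand for all 3, with capitals for a GC box (GGGCGG) or a CCAAT box (CCAAT) on either strand. Rab5b lies at chr7:1712737-1712986, Rab4b at chr1:91600338-91600587 and Rab11b at chr7:15236755-15237004.
Rab5b: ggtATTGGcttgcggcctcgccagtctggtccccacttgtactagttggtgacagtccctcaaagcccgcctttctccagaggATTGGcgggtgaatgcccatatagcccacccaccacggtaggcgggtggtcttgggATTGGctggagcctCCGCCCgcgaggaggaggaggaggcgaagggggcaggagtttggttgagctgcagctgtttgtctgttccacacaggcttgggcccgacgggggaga
Rab4b: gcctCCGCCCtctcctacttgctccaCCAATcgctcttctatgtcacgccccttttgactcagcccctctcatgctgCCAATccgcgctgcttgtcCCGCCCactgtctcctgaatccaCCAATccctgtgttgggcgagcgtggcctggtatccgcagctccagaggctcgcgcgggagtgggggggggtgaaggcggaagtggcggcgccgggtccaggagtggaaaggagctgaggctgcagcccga
Rab11b: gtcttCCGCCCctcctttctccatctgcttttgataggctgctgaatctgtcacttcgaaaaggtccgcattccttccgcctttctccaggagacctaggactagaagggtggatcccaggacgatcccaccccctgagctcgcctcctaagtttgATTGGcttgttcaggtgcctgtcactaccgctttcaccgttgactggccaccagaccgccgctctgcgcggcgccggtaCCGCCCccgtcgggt
Rab5b holds 1 GC box and 3 CCAAT boxes, Rab4b 2 and 3, and Rab11b 2 and 1. RefSeq promoter entries matched 45 of the 56 Rab genes, and Rab1b was not among them. A GC box was in 35 of these 45 (77.8%), where 40.3% of 19005 protein-coding promoters of the same length have one. A CCAAT box was in 15 (33.3%, against 35.5%), and the letters TATAAA on either strand were in 0 of the 45, against 12.3%. These are counts of short strings, which say nothing of a factor's binding. Promoters of genes with a like expression level were not compared, so the shares are not shown to be particular to Rabs.

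Western against Control had 1 member with an unadjusted limma p under 0.05 (1.79%, where 1.98% of all genes did), and it was a lower one (1.39% of all genes were higher and 0.591% lower). This was Rab10, which carries GLUT4 vesicles to the surface in fat cells. It read 10.61 and 10.33 on Control, 10.12 and 10.13 on Western, and 10.11 and 10.29 on Western plus DHA arrays. Both Control arrays were above the other 4. Western minus Control was -0.34 ± 0.142 (95% interval -0.67 to -0.02; limma adjusted p = 1), and -0.20 without Control 1. Western plus DHA minus Control was -0.27 ± 0.142, and the second probe set gave -0.08 ± 0.133 for Western minus Control. The count of such members was 4 without Control 2, where 8.66% of all genes passed that threshold, and 0 without Control 1 (1.7% of all genes) or without either Western array (1.17% and 1.21%).

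Next in order of p were Rab31 (-0.24 ± 0.145) and Rab4a (-0.25 ± 0.178) among the lower members, and Rab19 (0.19 ± 0.132), Rab38 (0.17 ± 0.133) and Rab36 (0.16 ± 0.128) among the higher ones, all with an adjusted limma p of 1. On the Western arrays 16 members lay wholly below Control (28.6%, where 11.9% of all genes did) and 11 wholly above it (19.6%, against 16.6%). With 2 arrays a diet, even a small difference can leave no overlap. Among the 16, Rab2a, Rab33b, Rab7a and Rab11a differed by -0.03 to -0.05, and Rab10 by -0.34. Among the 11, Rab40c differed by 0.05 and Rab19 by 0.19. Genes of a like expression level were not compared. The difference was above 0 for 21 members (37.5%, against 52.1%). It was above 0 for 12 of the 42 members at or above the median level, with a median of -0.09, and for 9 of the 14 below it, with a median of 0.04. For Western plus DHA against Control, 12 members lay wholly below (21.4%, against 14.3%) and 15 wholly above (26.8%, against 22.3%), and the difference was above 0 for 25 (44.6%, against 56.7%).

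Western plus DHA against Western, the comparison of the fatty acid on the same diet, had 2 members with an unadjusted p under 0.05, 1 in each direction (3.57%, where 3.52% of all genes did, 2.06% higher and 1.46% lower). The lower one was Rab1b. The higher one was Rab2b, a paralogue of the Golgi Rab2a, which read 8.61 and 8.68 on Control, 8.59 and 8.41 on Western, and 8.80 and 8.84 on Western plus DHA arrays. Western plus DHA minus Western was 0.32 ± 0.127 (95% interval 0.03 to 0.61; limma adjusted p = 0.983). The second Rab2b probe set gave 0.06 ± 0.140, and Rab2a 0.00 ± 0.120. After them came Rab8b (0.26 ± 0.121) and Rab17 (0.26 ± 0.128) on the higher side and Rab5b (-0.25 ± 0.118) and Rab6b (-0.26 ± 0.129) on the lower side, with an adjusted limma p of 0.983 each. The other probe sets gave 0.21 and 0.03 for Rab8b and 0.17 and 0.24 for Rab17. They gave -0.40 to 0.03 for Rab5b and 0.09, of opposite sign, for Rab6b. Wholly above Western lay 13 members (23.2%, against 20.9% of all genes) and wholly below it 9 (16.1%, against 15.9%), and 29 differences were above 0 (51.8%, against 53.3%). That count of 2 became 6 without Western plus DHA 1, where 7.28% of all genes passed, and 0 without Western 2 (1.1%) or the second Western plus DHA array (4.63%).

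**Figure D3:**
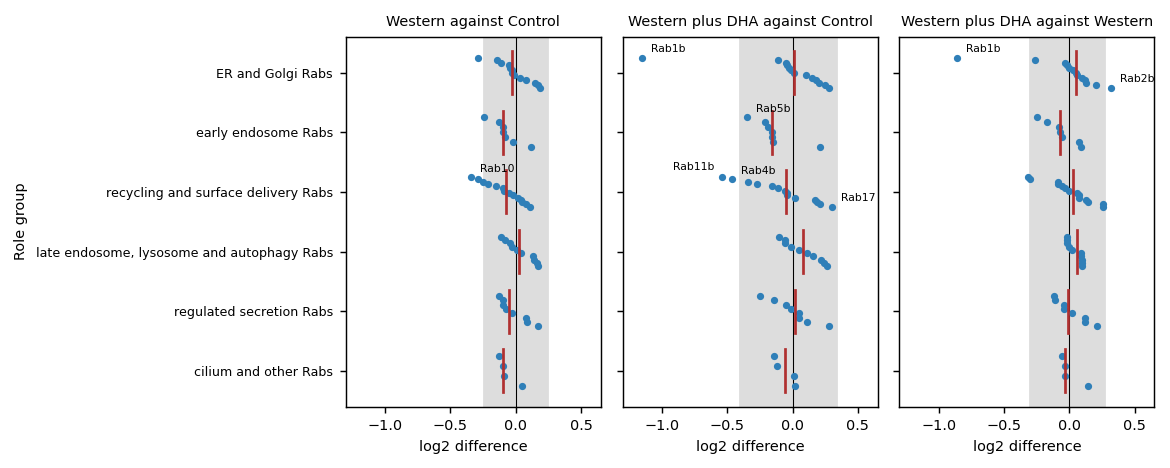
Log2 differences of the 56 Rab genes (points) in 3 comparisons by role group, with a red bar at the group's median and grey from the 5th to the 95th percentile of all 14217 genes. Genes with an unadjusted limma p under 0.05 are named, and none passed after adjustment. The Rab1b point in Western plus DHA against Control lies at -1.15, outside the grey range of -0.40 to 0.34.

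By role, medians stayed within 0.16 of 0 in every comparison. The 13 Rabs of the endoplasmic reticulum and Golgi had medians of -0.03 (Western minus Control), 0.01 (Western plus DHA minus Control) and 0.05 (Western plus DHA minus Western). Rab18, which sits on the endoplasmic reticulum and lipid droplets, differed by -0.11, -0.05 and 0.06, and Rab6a of the trans-Golgi by -0.01, -0.03 and -0.02. The 7 early endosome Rabs had medians of -0.10, -0.16 and -0.07. In each comparison with Control 6 of 7 were below 0 on their representatives, Rab5a being the exception with 0.12 and 0.21. Rab20, at -0.02 and -0.19, was above 0 on its other probe sets, with 0.32 and 0.10 on 1381836_at and 0.06 and 0.23 on 1398422_at. The other probe set of Rab31 kept the sign, and those of Rab22a and Rab5b had mixed signs. Over all genes 52.1% and 56.7% were above 0, and both comparisons share the Control arrays. Without Control 1, Rab5a was at -0.05 for Western minus Control. Control 1 was the highest array for Rab20, Rab22a and Rab5c, at 9.15, 8.32 and 7.89. Their Control 2 values of 8.62, 7.84 and 7.38 lay below the Western means of 8.86, 7.95 and 7.54. These values were also below the Western plus DHA means of 8.69, 7.87 and 7.48, so the signs of these genes rest on Control 1.

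The 14 recycling and surface delivery Rabs had medians of -0.07, -0.05 and 0.03. Among those tied to GLUT4 vesicles, Rab8a differed by 0.05, 0.02 and -0.03, and its Western plus DHA arrays at 8.22 and 7.58 lay on both sides of all the others. Rab13 differed by 0.11, 0.19 and 0.07. Rab14 read 10.67 and 10.57 on Control, 10.43 and 10.22 on Western, and 10.08 and 10.84 on Western plus DHA arrays. Its lowest and its highest value were thus both from Western plus DHA, and its difference from Control was -0.54 without the second of these arrays and 0.22 without the first.

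The 10 Rabs of late endosomes, lysosomes and autophagy had medians of 0.02, 0.08 and 0.05. Rab7a read 10.06 and 10.04 on Control, 10.00 and 10.02 on Western, and 10.01 and 9.98 on Western plus DHA arrays, a difference of -0.06 ± 0.117 from Control under Western plus DHA, with a 95% interval of -0.33 to 0.21. Rab9a, which returns mannose 6-phosphate receptors from late endosomes to the Golgi, differed by 0.14, 0.24 and 0.10. The 8 Rabs of regulated secretion had medians of -0.05, 0.02 and -0.01, and the 4 of cilia and other routes -0.09, -0.06 and -0.03.

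The second probe sets of a gene often did not repeat the sign of its representative. Of the 41, the sign was shared by 25 for Western minus Control, 32 for Western plus DHA minus Control and 27 for Western plus DHA minus Western. All probe sets of a gene had 1 sign in 12, 20 and 15 of the 27 genes. Of these 41 probe sets, 8 had an unadjusted limma p under 0.05 for Western plus DHA against Control, all lower, and 3 were those of Rab1b. Of all 31042 probe sets 8.87% did, 4.17% higher and 4.69% lower. The 41 thus held a larger share of lower probe sets than the background. The representatives did too when only the lower direction is taken (7.14%, against 3.99% of all genes). Other probe sets of the 8 are of Rab5b and Rab11b, whose representatives were already among the lower members, as was that of Rab1b. On the Western plus DHA arrays 16 of the 41 lay wholly below Western and 2 wholly above it, where 15.9% and 20.9% of all genes did on their brightest probe set. The like share over all 31042 probe sets is not given here. Several of the 41 belong to 1 gene and are not independent.

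Also among the 8 were probe sets of Rab3a and Rab31, named here after their values were seen. For Rab3a, a Rab of regulated exocytosis, 1369816_at read 6.87 and 5.86 on Control, 5.89 and 6.27 on Western, and 5.57 and 5.23 on Western plus DHA arrays. Its difference from Control was -0.96 ± 0.302, and -0.46 without Control 1, while the representative of Rab3a gave -0.14 ± 0.126. For Rab31, which acts between the trans-Golgi and endosomes, the second probe set gave -0.54 ± 0.149 and the representative -0.16 ± 0.145. Which probe set follows the main transcript in this tissue was not tested.

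**Figure D4:**
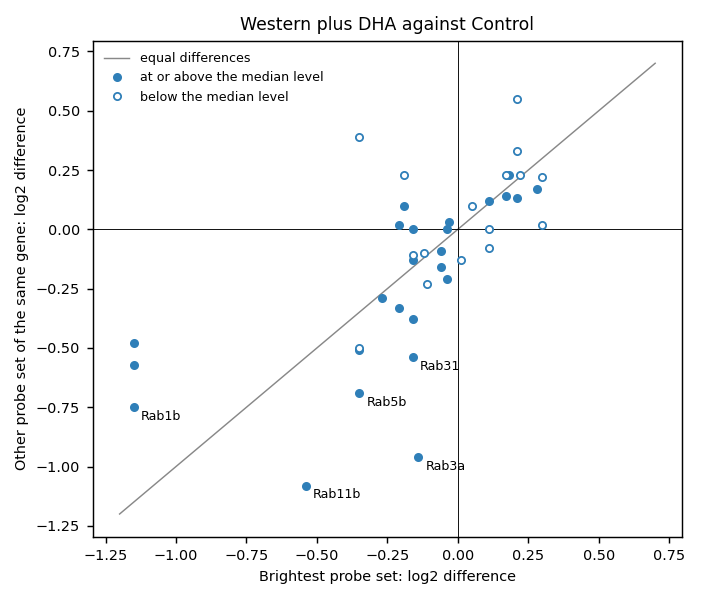
Log2 difference of Western plus DHA minus Control for each of the 41 other probe sets (vertical) against that of the gene's brightest probe set (horizontal), with open points for probe sets below the median level and the grey line at equal differences. The sign is shared by 32 of the 41, and the labelled Rab11b and Rab3a points lie below the line, at -1.08 against -0.54 and -0.96 against -0.14.

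Around the Rabs themselves, no gene of 6 lists of the Rab machinery passed after adjustment. In Western plus DHA against Control, an unadjusted limma p under 0.05 was given by 0 of 5 measured genes for prenylation and GDP dissociation, by 3 of 38 exchange factors (all lower) and by 5 of 31 GTPase-activating proteins (2 higher, 3 lower). The same held for 7 of 43 effectors (3 higher, 4 lower), 3 of 30 genes of COPII and COPI traffic and 2 of 15 genes of GLUT4 traffic (all lower), beside 8.45% of all genes. By direction, 4.46% of all genes were higher and 3.99% lower. In Western against Control, 0 genes of the first 5 lists did and 1 of the GLUT4 list, which was Rab10 (lower), beside 1.98% of all genes (1.39% higher and 0.591% lower). In Western plus DHA against Western, 2 of 38 exchange factors and 1 of 30 COPII and COPI genes were lower at that threshold. There 1 of 31 GTPase-activating proteins was higher, beside 2.06% of all genes higher and 1.46% lower. The lists overlap, since Golga2, for one, stands in 2 of them and 4 Rabs are in the GLUT4 list. List medians were 0.02, -0.04, -0.05, -0.01, 0.02 and -0.12, where the median of all genes was 0.03.

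Among exchange factors, Dennd5a, a DENN domain protein that binds Rab6, read 9.50 and 9.42 on Control, 9.39 and 9.43 on Western, and 9.13 and 9.13 on Western plus DHA arrays. Both Western plus DHA values were below the other 4, at -0.33 ± 0.119 from Control (limma adjusted p = 0.562) and -0.28 ± 0.119 from Western. Dennd1a, an exchange factor for Rab35, differed from Control by -0.42 ± 0.163, and Mon1b, of the complex that activates Rab7, by -0.57 ± 0.227. The latter pair came to -0.23 and -0.22 without Control 1.

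Among GTPase-activating proteins, Tbc1d25 differed by -0.52 ± 0.169, Tbc1d10b by -0.46 ± 0.158 and Tbc1d8b by 0.35 ± 0.129, and the first and second came to -0.31 and -0.28 without Control 1. Among effectors, Rab11fip2, which binds Rab11 on recycling endosomes, differed by 0.35 ± 0.124, Ocrl, an inositol polyphosphate phosphatase, by 0.36 ± 0.134, and Mlph, which links Rab27a to myosin in pigment cells, by 0.53 ± 0.195, or 0.28 without Western plus DHA 2. Rab11fip2 read 5.72 and 5.57 on Control, 5.78 and 5.87 on Western, and 6.01 and 5.97 on Western plus DHA arrays, with no overlap between diets. Adjusted p-values were 0.562 for each of these 6 genes (limma).

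On the route that Rab1 serves, Gorasp1, the Golgi stacking protein GRASP65, read 7.58 and 6.96 on Control, 6.91 and 7.18 on Western, and 6.70 and 6.33 on Western plus DHA arrays. Both Western plus DHA values were the lowest, with a difference of -0.76 ± 0.224 from Control (limma adjusted p = 0.562) that was -0.45 without Control 1. Its Golgi partner Golga2 (GM130, itself a Rab1 effector) differed by -0.47 ± 0.184 and Preb, the exchange factor for the COPII GTPase Sar1, by -0.47 ± 0.199, which became -0.22 and -0.24 without Control 1. In the GLUT4 list, Vamp2, the vesicle SNARE, read 7.11 and 6.10, 6.07 and 6.25, and 6.00 and 5.48, and Akt2, the insulin-signalling kinase, 9.10 and 8.38, 8.41 and 8.59, and 8.36 and 8.03. The Control 1 value was the highest for both, and their differences of -0.87 ± 0.306 and -0.54 ± 0.232 became -0.36 and -0.18 without it. Slc2a4, which encodes GLUT4, differed by -0.36 ± 0.216 (limma adjusted p = 0.625) with Control 1 again the highest array.

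**Figure D5:**
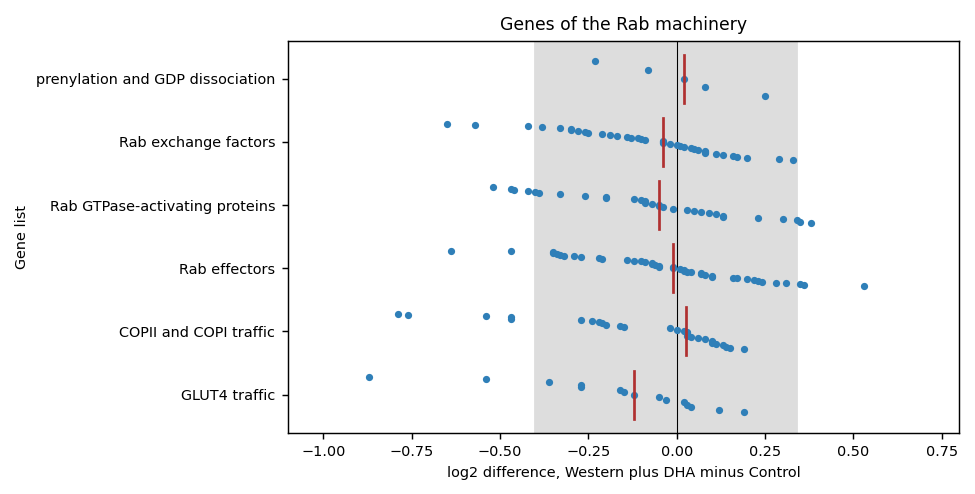
Log2 differences of Western plus DHA minus Control for genes of 6 lists of the Rab machinery (points), with a red bar at each list's median and grey from the 5th to the 95th percentile of all 14217 genes (-0.40 to 0.34). List medians lie between -0.12 and 0.02, and Vamp2 is the lowest point at -0.87.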

How the data were processed

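Log2 expression values of 31099 probe sets on 6 arrays were deposited by the authors. The submitters' processing notes name RMA and R 2.11.0. Per the labels' protocols, 5 µg of total RNA went into each labelling. Background steps or probe filters beside RMA are not stated in these sources. The p-values and log2 fold changes of the authors' deposited tables were used only where named.

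The 57 Affymetrix control probe sets were left out and 31042 were fitted with limma 3.58.1 in R 4.3.3 (lmFit, eBayes, 3 residual and 5.28 prior degrees of freedom). One fit of the 3 diets shared its spread, and p-values were adjusted by Benjamini-Hochberg over all 31042, with a threshold of 0.05. The 2 arrays of a diet are pools, so a p-value here reflects the spread of pools, and their number limits the precision. No batch is named in the labels.

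Probe sets were named from GEO's platform annotation: 20826 had 1 symbol, 436 several and 9780 none. A gene's level is that of its brightest probe set, and probe sets below the median level of 5.34 are called below the median level. The genes named are every Rab1b probe set, Rab1a, a panel of 7 Rabs (Rab5a, Rab7a, Rab8a, Rab10, Rab11a, Rab13, Rab14), members with an unadjusted p under 0.05 or the 3 smallest p per direction, and up to 3 genes of each machinery list; others are named for their paralogues, their range over arrays or as examples of a role. Members, lists and rule were chosen with earlier results of these data known. Alternatives covered normalization, dim probe sets, the variance model, the arrays in the fit, the replicate number, the probe sets per gene, updated symbols and leaving out each array.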

Additional observations from a re-analysis of the deposited data

How the results depend on the processing

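No Rab member passed after adjustment under any alternative tried; the lowest adjusted p of a member was 0.485 for Western against Control, 0.138 for Western plus DHA against Control and 0.634 for Western plus DHA against Western. Members with an unadjusted p under 0.05 numbered 1, 5 and 2 in these comparisons. The first count was 0 under a second quantile normalization (1.86% of all genes), under cyclic loess (1.91%) and with each gene's probe sets averaged (2.18%). The second was 3 under cyclic loess (7.46% of all genes), 3 without dim probe sets (7.42%) and 3 with array weights (6.07%). It was 2 with the 4 compared arrays only (5.54%). With each gene's probe sets averaged it rose to 7, 1 higher and 6 lower (9.19% of all genes). The third was 4 under cyclic loess (3.55% of all genes). Without dim probe sets the members' median was -0.09 for Western minus Control (main value -0.04) and -0.05 for Western plus DHA minus Control (-0.02), and with each gene's probe sets averaged it was -0.02 for Western plus DHA minus Western (0.01). Rab1b stood at -0.74 from Control under Western plus DHA with its probe sets averaged, in place of -1.15. With 1 array left out, counts ranged from 0 to 4, 2 to 10 and 0 to 6, while the share of all genes at that threshold ranged from 1.17% to 8.66%, 3.09% to 17.8% and 1.1% to 7.28%. The members' medians ranged from -0.05 to -0.01, -0.03 to 0.04 and -0.01 to 0.04. Rab1b then ranged from -0.59 to 0.00, -1.39 to -0.92 and -1.15 to -0.57. Of 1274 other recomputed values 74 moved by more than the spread between arrays. Signs did change with 1 array left out. For Western plus DHA minus Control, Rab14 then ranged from -0.54 to 0.22 and Rab8a from -0.30 to 0.34. The cause of these shifts was not tested. Among all genes with an unadjusted p under 0.05, the share that was higher was 70.2% for Western against Control (59% under cyclic loess, 52.1% without dim probe sets), 52.8% for Western plus DHA against Control (36.9% without dim probe sets) and 58.5% for Western plus DHA against Western (44.6%). Without 1 array these shares ranged from 40.9% (without Control 2) to 70.7%, 39.6% to 73.9% and 37.4% to 75.1%.

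Deviations of same-numbered arrays correlated at -0.206 (Control and Western), 0.202 (Control and Western plus DHA) and -0.228 (Western and Western plus DHA) across probe sets. With 2 arrays a diet, these values cannot settle whether the replicate numbers pair the samples. With the number as a replicate block, the counts of members at an unadjusted p under 0.05 were 0, 4 and 1. The shares of all genes were then 1.67%, 7.98% and 3.06%. With 2 arrays a diet, a difference smaller than the distance from a printed estimate to the end of its interval could not be told from 0, even unadjusted.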
